A study of Mus musculus with 4 samples.

Results

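The genes studied here are the 9 listed members of the mouse oligoadenylate synthetase (OAS) family, Oas1a, Oas1b, Oas1c, Oas1g, Oas1h, Oas2, Oas3, Oasl1 and Oasl2, of 24421 genes in the count tables, and the 713 variant sites that carry one of their names among 1205261 sites in the table of candidate editing sites. They were taken by symbol, with earlier results of these data known. RNA was sequenced from lung endothelial cells (ECs) of 2 male inducible ADAR1 knockout (i-KO) mice of 2 weeks of age and strain C57/BL6, from independent litters. The ECs of each mouse were selected on endothelial surface proteins, cultured and split into an untreated control dish (CON) and a dish given tamoxifen (TM), which switches on the Cre recombinase that deletes part of Adar, so that the 4 libraries form 2 groups of 2 paired by mouse (CON and TM of EC1, which is mouse 1, and of EC2, which is mouse 2). All 4 libraries carry the floxed Adar allele, and CON cells received no TM, so tamoxifen itself and the deletion of Adar cannot be told apart in these groups. Summed over all rows of its count table, a library held 131796753 to 207323870 counts. Of these, 0.823% to 0.858% were assigned to genes and 92.8% to 93.9% to no gene.

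OAS proteins bind double-stranded RNA (dsRNA) and then join ATP into short 2′-5′ linked oligoadenylates, called 2-5A. The 2-5A acts as a second messenger of the antiviral response inside the cell. OAS genes are classical interferon-stimulated genes (ISGs): type I interferon acts through the receptor chains IFNAR1 and IFNAR2, the kinases JAK1 and TYK2 and a factor complex that holds STAT2 and IRF9 and binds the interferon-stimulated response element in their promoters. In mice the Oas1 genes, Oas2 and Oas3 lie in 1 cluster on chromosome 5, and the OAS-like genes Oasl1 and Oasl2, whose products carry ubiquitin-like repeats, lie elsewhere on the same chromosome. Oas1a and Oas1g are the mouse genes with the classical small synthetase, while several of the other Oas1 copies are known to lack synthetase activity. Oas1b is known as the flavivirus resistance gene, and most laboratory strains carry a truncated allele.

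The members are paralogs, and the closest pair was Oas1a and Oas1g. Over their coding sequences in the annotation GENCODE vM21 (build mm10, the build of the deposited sites) Oas1a and Oas1g were 96.7% identical, while Oas1a was 79.7% identical to Oas1b, 76.3% to Oas1c, 74.4% to Oas1h, 64.3% to Oas2, 65.4% to Oas3, 61.9% to Oasl1 and 60.5% to Oasl2. Of the 100-base windows of the longest Oas1a transcript, 40.9% also occur in an Oas1g transcript, and 38.2% of those of Oas1g occur in Oas1a, so the values of these genes are uncertain where reads fall in such windows. No window of Oas1b, Oas1h, Oas2, Oas3, Oasl1 or Oasl2 occurs in a transcript of another gene, and 4.47% of those of Oas1c occur in the antisense gene Gm43069. The coding stretch of 90 bases without gaps in which Oas1a and Oas1g differ most, at 8 bases, is shown to let the paralogs be compared. Capitals mark bases that differ from Oas1a, at 11 positions in Oas1b, 10 in Oas1c and 11 in Oas1h.
Oas1a: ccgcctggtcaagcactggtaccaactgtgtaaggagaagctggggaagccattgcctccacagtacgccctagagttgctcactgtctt
Oas1g: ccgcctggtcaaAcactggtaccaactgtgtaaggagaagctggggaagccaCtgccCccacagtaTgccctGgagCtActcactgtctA
Oas1b: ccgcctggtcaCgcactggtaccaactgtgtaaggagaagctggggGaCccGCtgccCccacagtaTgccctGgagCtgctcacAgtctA
Oas1c: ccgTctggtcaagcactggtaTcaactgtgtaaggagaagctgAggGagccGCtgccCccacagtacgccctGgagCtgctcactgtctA
Oas1h: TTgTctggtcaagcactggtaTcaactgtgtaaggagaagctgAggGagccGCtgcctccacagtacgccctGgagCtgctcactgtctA

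The promoters of 7 of the 9 members were found in the RefSeq promoter table (build GRCm38.p6, 250 bases before to 50 after the start), and they were searched on both strands for 2 copies of GAAA with any 2 bases between them, the core of the interferon-stimulated response element. The motif occurred in 4 of the 7, those of Oas1a, Oas1g, Oas1c and Oas3, against 3.44% of the 32851 promoters in the table. It did not occur in the windows of Oas1h, Oasl1 and Oasl2. The stretches that hold the matches are shown so that the paralogs can be compared, with the match in capitals and written 5′ to 3′ on the strand of the gene. In Oas1a, Oas1g and Oas1c 2 overlapping matches form a stretch of 16 bases.
Oas1a, chr5:120907510-120907565, minus strand: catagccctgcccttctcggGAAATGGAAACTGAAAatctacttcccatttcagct
Oas1g, chr5:120887596-120887651, minus strand: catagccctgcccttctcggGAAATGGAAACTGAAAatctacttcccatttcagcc
Oas1c, chr5:120812593-120812648, minus strand: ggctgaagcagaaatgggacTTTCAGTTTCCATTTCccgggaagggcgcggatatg
Oas3, chr5:120777705-120777754, minus strand: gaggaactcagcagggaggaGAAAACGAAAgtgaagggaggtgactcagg
Oas1a and Oas1g held the same 16 bases on the strand of the gene, ending 4 and 2 bases before the start. Oas1c held them on the opposite strand. Oas1c and Oas1b are transcribed away from each other, with 120 bases between them, and the stretch ended 7 bases before the annotated first base of Oas1b, on the strand of Oas1b. Such matches describe the sequence and do not show that a factor binds there.

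Adar was read first as a check of the labels. Its count rose from 9 in CON to 47 in TM in mouse 1 and from 16 to 71 in mouse 2. The deletion is given as exons 12 to 15. In exons 12 to 14 the site table listed 3 sites for EC1 CON and 1 for EC2 CON, with median depths of 145 and 169 reads, none for EC1 TM, and 2 for EC2 TM with a median of 65.5 reads. In exons 1 to 11 the medians were 152.5 and 176 reads in CON and 664 and 960 in TM, and exon 15, which holds the 3′ UTR, was covered in TM as well, with 99 and 156 reads in CON and 422 and 835 in TM. Of the 12 endothelial marker genes, Cldn5 was called lower in TM (log2 fold change -1.52, adjusted p = 0.0176 in edgeR's quasi-likelihood test) and no other marker was called, and the summed CPM of the list was 1353 to 1473 in the 4 libraries. The summed CPM was 52.9 to 74.2 for 8 leukocyte markers, with Lyz2 and Cd3e at 0 in every library, 493 to 581 for 9 markers of fibroblasts and smooth muscle, and 2.74 to 8.53 for 6 epithelial markers. Tagln alone held 433 to 504 CPM of the fibroblast and smooth muscle sum, and Csf1r 30.1 to 57.0 CPM of the leukocyte sum. In these bulk RNA samples more RNA per cell and more cells of a kind cannot be told apart. The marker values are gene counts alone, with the limits given below, and site depth was not read for the markers.

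To see whether the OAS genes differed between TM and CON, their gene counts were compared first. The CPM of all 9 members was higher in both TM libraries than in both CON libraries, against 19.9% of the 17237 genes with at least 1 count, and 6 members had no count at all in either CON library. A count of 0 is a limit and not a level: 3 counts correspond to 2.67 CPM in EC1 CON and 2.74 CPM in EC2 CON, and the folds of such genes are given as lower bounds against that floor in each CON library. Intervals and floors cover counting error only. Of the counts on genes, 73.9% to 78.9% fell on genes that overlap exons of the other strand, while 24.1% of annotated genes do so. The paper states default settings for its pipelines and names no strand setting for the counting. Which strand the gene counts hold was not tested here, so a count need not be RNA from the strand of the named gene. The gene counts are read as counts assigned to a gene, and the part of the strand setting in the count values of this report was not tested.

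By gene count alone, Oas1h stood highest of the Oas1 genes, although no exonic site was listed for it in any library. Its listed sites within the gene were intronic and covered by at most 9 reads. Whether its counts are RNA of Oas1h itself was not tested. Its count was 0 in CON and 58 in TM of mouse 1, and 0 and 95 in mouse 2, or 52.5 and 54.0 CPM in the TM libraries. These 2 TM values differed little between the mice and both lay far above the floor, at least 19.7-fold higher by gene count. Oas1a had 0 counts in CON and 12 in TM of mouse 1, and 0 and 31 in mouse 2, at least 5.27-fold higher. Oas1c, which had 0 and 6 counts in CON and TM of mouse 1 and 2 and 15 in mouse 2, had CON counts too low for more than a lower limit: the 95% exact counting interval of its ratio of 8.14 reached from 1.99 to 71.6. Oas1b had no CON count and 7 and 5 counts in TM of mouse 1 and mouse 2, and Oas1g none and 4 and 6, at least 1.70-fold and at least 1.30-fold higher. From mouse 2 alone the bound of Oas1b was 1.04, and from mouse 1 alone it was 2.37. These bounds are close to 1 because the TM counts themselves are small.

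Among the large synthetases, which repeat the synthetase unit within 1 protein, Oas2 had 0 counts in CON and 4 in TM of mouse 1, and 0 and 5 in mouse 2, and was at least 1.20-fold higher in TM. Oas3, whose product senses long dsRNA, had 0 and 9 counts in mouse 1 and 0 and 31 in mouse 2 and was at least 4.77-fold higher, or 3.05-fold from mouse 1 alone. The OAS-like genes were the members with counts in a CON library of mouse 1. Oasl1, whose product restrains translation of Irf7 mRNA, had 2 counts in CON and 21 in TM of mouse 1, and 0 and 45 in mouse 2, and its ratio of 25.6 had a counting interval of 6.81 to 216, of which only the lower end is used, since CON held 2 counts. Oasl2 had 5 and 44 counts in mouse 1 and 0 and 100 in mouse 2, a log2 fold change of 4.38 ± 0.63 (SE, n = 2 libraries per group). In no member did the TM and CON libraries overlap.

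**Figure D1:**
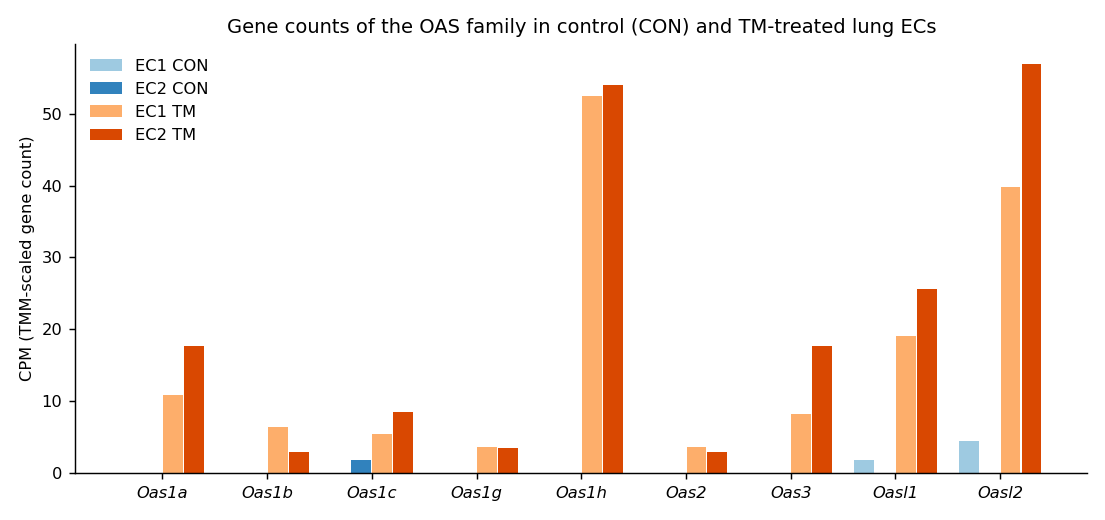
CPM (TMM-scaled gene counts, linear axis from 0) of the 9 OAS genes, with 1 bar per library: blue for CON, orange for TM, pale for mouse 1 and dark for mouse 2. Visible CON bars stand only at Oas1c in EC2 and at Oasl1 and Oasl2 in EC1, and the TM bars reach 52.5 and 54.0 CPM at Oas1h and 39.8 and 56.9 CPM at Oasl2.

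Of the 9 members, 4 passed the filter on low counts, each through its TM counts, so that their calls are given as a description: Oas1h (adjusted p = 6.86e-08), Oasl2 (1.09e-05), Oasl1 (0.000332) and Oas1a (0.00047) were called higher in TM by edgeR's quasi-likelihood test, where 4.39% of 7899 genes were called higher and 3.35% lower. Oas1b, Oas1c, Oas1g, Oas2 and Oas3 did not pass the filter and have no test. DESeq2, which applies its own filter, called 5 of 6 members with an adjusted p, adding Oas3 (adjusted p = 0.0239), where it called 2.26% of 10373 genes higher. With the mouse as a replicate block, DESeq2 gave an adjusted p to Oas1h and Oasl2 only and called Oas1h (adjusted p = 1.43e-05) and not Oasl2 (0.144), while edgeR with the block called the same 4 members. Oas1a was not tested without the TM library of mouse 2, and 3 members were called then. The log2 fold change of Oasl2 ranged from 3.43 to 9.01 and that of Oasl1 from 3.59 to 7.89 when each library was left out in turn, the highest when the only CON library with counts, EC1 CON, was left out. A permutation of 2 libraries against 2 cannot go below a two-sided exact p of 0.333.

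Per kilobase of annotated exon and by gene count alone, the levels in TM were highest for Oas1h, with 30.8 CPM per kb in EC1 and 31.7 in EC2. Oasl1 (7.29 and 9.81 CPM per kb), Oasl2 (6.25 and 8.92) and Oas1a (5.76 and 9.35) followed. On this length they did not differ from each other beyond the spread between the mice. Oas1b (3.18 and 1.43) and Oas1c (2.26 and 3.55) overlapped as well, as did Oas3 (1.15 and 2.49) and Oas1g (1.55 and 1.46). Oas2 was lowest with 0.813 and 0.639 CPM per kb. The length used here joins the exons of all transcripts of a gene, 6.374 kb for Oasl2. The longest Oasl2 transcript, used below to set counts against depth, has 3123 bases, so the order by count depends on the length taken.

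The count tables used few of the reads, so the read depth at the variant sites of the site table was taken as a second reading of the same libraries. A site is listed in a library only where at least 1 read carried the altered base, A-to-G on the strand of the gene, and its depth is the sum of reference and altered reads. A site that is not listed has an unknown depth. All 414 exonic sites (exon, 5′ UTR or 3′ UTR) of the members lay in an annotated exon of the named gene. The members had 20 listed sites in the CON library and 329 in the TM library of mouse 1, against 21 and 415 for mouse 2, while the whole table went from 380880 to 363776 sites in mouse 1 and from 354338 to 431151 in mouse 2. Most of these sites rested on single altered reads, 273 of 329 in EC1 TM and 351 of 415 in EC2 TM, and serve here for their depth only.

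Exonic depth was higher in TM for every member with exonic sites listed in both groups. Oasl2 had a median exonic depth of 34 reads in CON (1 site) and 1094.5 in TM (58 sites) of mouse 1, and of 22 (3 sites) and 1969.5 (68 sites) in mouse 2. For Oasl1 the medians were 13 reads (2 sites) and 683.5 (24) in mouse 1, and 10 (1) and 1295 (41) in mouse 2. Both TM medians of each OAS-like gene lay far above both CON medians. Oas1a, the small synthetase, had 20 reads (1 site) and 739 (25) in mouse 1, and 53 (1) and 1508 (37) in mouse 2. Its close copy Oas1g had 1.5 (4 sites) and 656 (31), and 12 (2) and 719 (27). Oas1b had 17 reads (3 sites) and 345.5 (24), and 19 (1) and 463 (16), so that no TM median of these 3 genes fell near its CON median.

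Scaled to a count table total of 100000000, median exonic depth was 32.5-fold higher in TM for Oasl2 in mouse 1 and 62.0-fold in mouse 2. The folds were 53.1 and 89.7 for Oasl1, 37.3 and 19.7 for Oas1a, and 20.5 and 16.9 for Oas1b. Oas1g was 41.5-fold higher in mouse 2, and its CON median of 1.5 reads in mouse 1 is too low for a fold. Set against the deepest exonic site listed in CON in place of the CON median, a choice made after seeing the data, the folds were 39.0 and 29.3 for Oas1g, 8.11 and 16.9 for Oas1b, and 19.7 to 89.7 for Oas1a, Oasl1 and Oasl2. These 5 members are those with an exonic site listed in every library, and all 5 were at least 8-fold higher in both mice, against 0.766% of the 9788 genes with such sites. The median over those genes of the log2 ratio was 0.03 in mouse 1 and -0.05 in mouse 2. With 2 mice and few CON sites no test was run, and the CON medians, which rest on 1 to 4 sites, are the weak side of each ratio.

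Oas2, Oas3 and Oas1c had no exonic site listed in either CON library, so no ratio is given. In TM, Oas3 had a median of 168.5 reads in EC1 (14 sites) and 288 in EC2 (33), and Oas2 of 96 (14) and 168.5 (18). Oas1c had 35 reads at 2 sites and 67 at 5 sites. Oas1h had no exonic site listed in any library. Its listed sites were 1 in EC1 TM, in an intron with a depth of 5 reads, and 6 in EC2 TM, of which 2 lay in introns with 4 and 9 reads and 4 lay within 1 kb past the 3′ end with 11 to 25 reads.

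**Figure D2:**
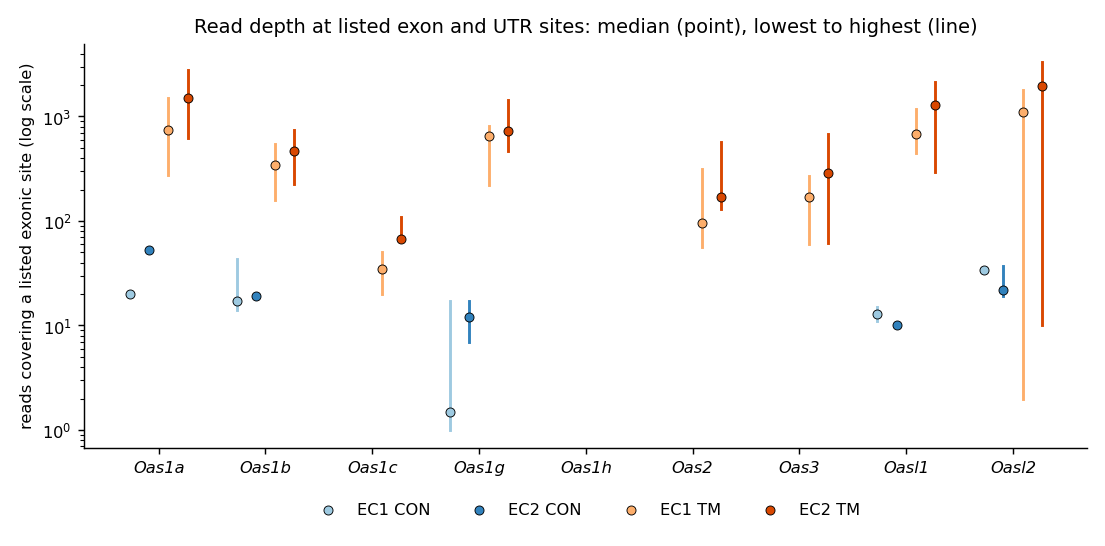
Reads covering the listed exon and UTR sites of the OAS genes in each library, on a log axis, with the median as a point and the lowest to highest site as a line. The TM medians of Oasl2, Oasl1, Oas1a and Oas1g lie between 656 and 1969.5 reads and the CON medians of these genes between 1.5 and 53, and Oas1h has no point.

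At single bases listed in both libraries of a mouse the direction was the same. A base in the 3′ UTR of Oasl2 (chromosome 5, position 114911878) was covered by 34 CON reads and 1389 TM reads in mouse 1. A base in an exon of Oas1g (position 120881900) was covered by 2 CON reads and 292 TM reads in mouse 1, and an intronic base of Oasl1 (position 114926999) by 1 and 70 in mouse 2. An intronic base of Oasl2 in a B1 element (position 114898214) was the only member site listed in all 4 libraries, with 1 read in each CON library and 20 in each TM library. After scaling, the ratio at the 3′ UTR base of Oasl2 was 41.3, with an exact 95% counting interval of 29.4 to 59.8. At the bases with 1 or 2 CON reads only the lower end of the interval can be read, and it was 40.4 for the Oas1g base, 8.42 for the Oasl1 base, and 3.23 and 2.21 for the B1 base in mouse 1 and mouse 2.

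**Figure D3:**
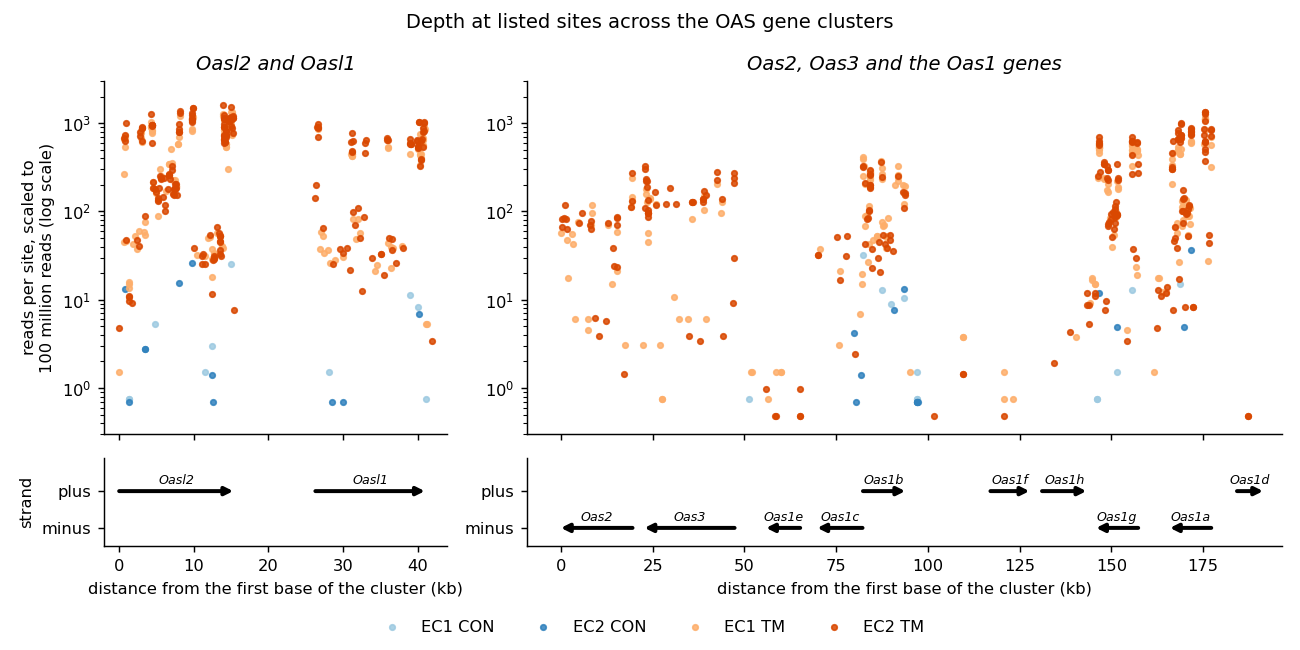
Depth at every listed site over the Oasl2 and Oasl1 locus (left) and the Oas2 to Oas1d cluster (right). The vertical axis is logarithmic, in reads scaled to a count table total of 100000000. The horizontal axis gives kb from the first base of each cluster, and arrows below show each gene in its direction of transcription. The TM points reach 100 or more scaled reads over Oasl2, Oasl1, Oas2, Oas3, Oas1b, Oas1g and Oas1a. Over Oas1h, Oas1f and Oas1e they reach at most 4.34, and between Oas1h and Oas1g at most 17.5.

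The order of the members by count and by depth differed. Oas1h, with the highest counts of the Oas1 genes, had no listed exonic site, and its count spread evenly over its transcript in pairs of 200 bases would give 6.81 reads per base in EC1 TM and 11.2 in EC2 TM. Oas1g, with 4 and 6 counts, or 0.405 and 0.607 reads per base on that scale, had a median listed exonic depth of 656 and 719 reads, 1621-fold and 1185-fold more. The same factor was 580 and 458 for Oas1a, 453 and 851 for Oas1b, 475 and 667 for Oas2, 442 and 219 for Oas3, 355 and 314 for Oasl1 and 388 and 308 for Oasl2. It was lowest for Oas1c, at 66.8 and 51.2. Among the 8 members with listed exonic sites in TM, Oasl2 ranked first by both readings, Oas1g ranked 7 by count and 4 by depth, and Oas1c ranked 4 by count and 8 by depth. The ranks by count use the count per base of the longest transcript. Listed sites favour well covered bases, and the part of this in the difference was not tested. By exonic depth the 3 highest members were Oasl2, Oas1a and Oasl1 in both mice, and the site ranges of Oas1a and Oasl1 overlapped.

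**Figure D4:**
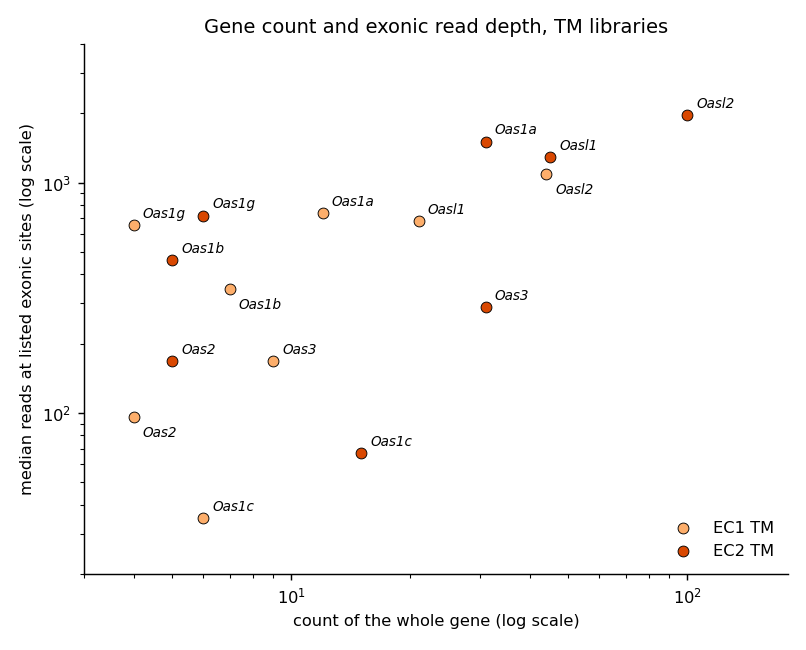
Median reads at listed exonic sites against the count of the whole gene, both on log axes, for the 8 OAS genes with listed exonic sites in EC1 TM (pale) and EC2 TM (dark). Oas1g, at 4 and 6 counts, lies at 656 and 719 reads, while Oas1c, at 6 and 15 counts, lies at 35 and 67 reads.

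In build mm10 the cluster runs along chromosome 5 from Oas2 (120730333-120749853, minus strand) through Oas3 (120753098-120777661, minus), Oas1c (120800194-120812514, minus), Oas1b (120812635-120824163, plus, annotated as a polymorphic pseudogene), Oas1h (120861421-120873506, plus) and Oas1g (120876142-120887613, minus) to Oas1a (120896256-120907521, minus). Oasl2 (114896936-114912234) and Oasl1 (114923240-114937915) lie side by side on the plus strand, 11005 bases apart. Oas1h is transcribed from the plus strand and Oas1g from the minus strand, with their 3′ ends facing over 2635 bases. Oas1b and Oas1c face away from each other, and Oas2 and Oas3 lie on the minus strand with 3244 bases between them. Exons of Oas1c share 227 bases with Gm43069 and exons of Oasl1 share 38 with Gm13822, both on the opposite strand, and no other member shares exonic bases with a gene on the opposite strand. Outside the family, Dtx1, the gene past the end of Oas2, had 0 counts in CON and 0 in TM of mouse 1, and 2 and 1 in mouse 2. 2210016L21Rik, past the end of Oasl1, had 13 and 2 counts in mouse 1 and 6 and 11 in mouse 2, and 4930519G04Rik, before Oasl2, had 0 and 1 in each mouse. The Oas1 copies that are not members were low: Oas1d had no count, Oas1f had 3 counts in EC2 TM alone, and Oas1e had 3 counts in EC1 TM, 8 in EC2 TM and none in CON, which is at least 1.34-fold higher.

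Of 3 further genes of the 2-5A list, 2 were tested and none was called. Abce1, which encodes a ribosome recycling factor, had a scaled exonic depth of 1.06-fold and 0.942-fold of CON, and Pde12, which degrades 2-5A, of 0.995-fold and 1.77-fold. Abce1 and Pde12 were tested and not called by edgeR (adjusted p = 0.867 and 0.918), and Akap7 did not pass the filter.

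In the wider list of 23 genes of the pathway, 18 were tested and 7 were called higher in TM and 0 lower by edgeR, where edgeR called 4.39% of all genes tested higher and 3.35% lower. The median log2 fold change was 0.70 over the tested genes of the list against 0.00 over all genes tested, and 1 gene of the list, Dhx58, was lower at an unadjusted p under 0.05 and was not called by DESeq2 (adjusted p = 0.336). DESeq2 called 4 of 18 with an adjusted p, and not Tlr3 (0.103), Adar (0.0891) or Irf9 (0.0625), while edgeR with the mouse as a replicate block called 9 higher, adding Irf7 and Eif2ak2, and Dhx58 lower. Of the dsRNA sensors, Ifih1 (MDA-5) went from 2 to 36 counts in mouse 1 and from 0 to 53 in mouse 2 (edgeR adjusted p = 2.64e-05), Tlr3 from 2 to 34 and from 6 to 29 (0.00666), and the nucleic acid sensor Zbp1 from 0 to 19 and from 0 to 48, at least 8.23-fold higher (3.44e-05). Of the factors, Stat2 went from 9 to 98 and from 9 to 164 counts (6.66e-07), Irf9 from 1 to 22 and from 2 to 28 (0.00199) and Irf1 from 9 to 41 and from 6 to 65 (0.000949). Adar was the other (0.00609). All 7 called genes, with 0 to 16 counts in a CON library, passed the filter only with their TM counts. Their calls are therefore a description as well. In edgeR the call of Tlr3 was lost without EC1 CON (adjusted p = 0.0746) or EC1 TM (0.173), that of Adar without EC1 CON (0.109) and that of Irf9 without EC1 TM (0.0755). The CON and TM libraries of each of these 7 called genes did not overlap. TM lay above CON in this way in 19.9% of the 17237 genes with at least 1 count. The 7 genes were called on the same libraries, so this adds no support. Stat2 had a log2 fold change of 3.47 ± 0.42 and Irf1 of 2.44 ± 0.49 (SE, n = 2 libraries per group).

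Of 9788 genes with an exonic site listed in every library, 0.766% had exonic depth at least 8-fold higher in TM in both mice. Among the 18 pathway genes with such sites, 4 reached that mark. They were Ifih1 (16.8-fold and 18.3-fold), Dhx58 (17.6 and 14.3), Stat2 (9.67 and 8.5) and Irf7 (29.3 and 38.3), the last known as the factor that amplifies interferon induction. On the same scale the OAS genes with CON medians above 3 reads ranged from 16.9-fold to 89.7-fold. For Ifih1 and Stat2 count and depth were both higher in TM, while Dhx58, named here after its values were seen, went from 49 counts in CON to 27 in TM of mouse 1 and from 63 to 35 in mouse 2, beside exonic depths of 29 and 506 reads and of 37 and 762. Its exons share 141 bases with Dhx58os on the opposite strand. The receptor chain Ifnar1 (0.679-fold and 0.548-fold by depth) and the kinases Jak1 (1.0 and 0.771) and Tyk2 (0.910 and 1.10) did not reach that mark in either direction.

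**Figure D5:**
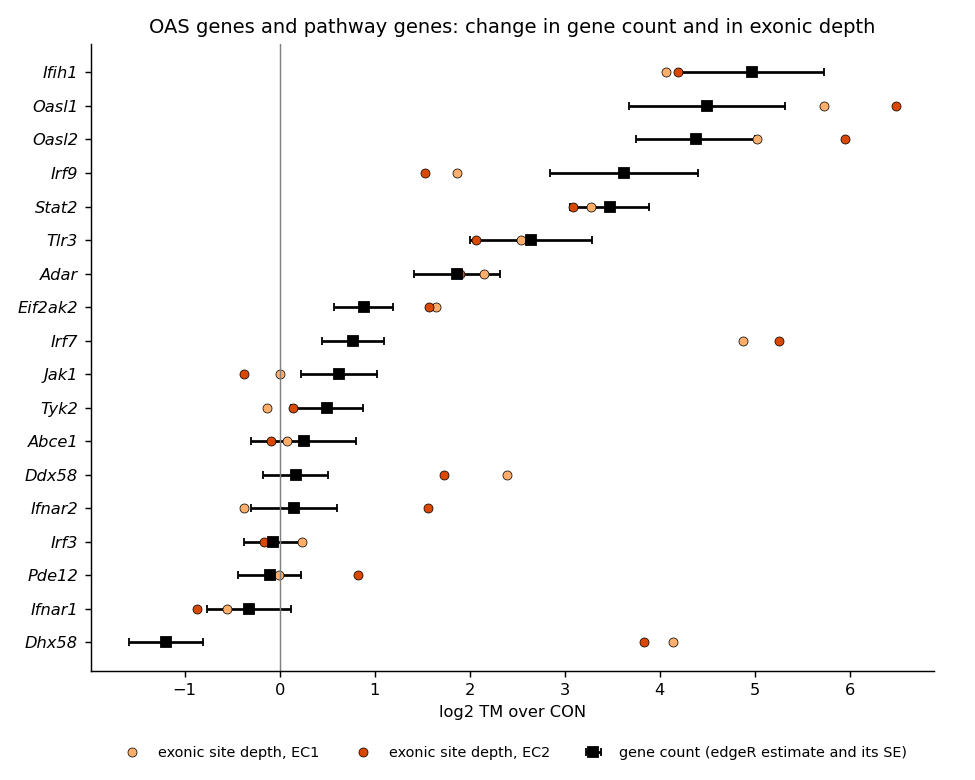
Log2 of TM over CON for the OAS and pathway genes with counts in CON and an exonic site listed in every library: the gene count as a black square with its SE (edgeR, n = 2 libraries per group) and the scaled median exonic depth as 1 point per mouse. Oasl1, Oasl2, Ifih1, Stat2 and Tlr3 lie to the right of 0 on both measures, and Dhx58 lies at -1.20 by count and at 4.14 and 3.83 by depth.

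The 5 genes outside the family whose profile over the 4 libraries was nearest to the mean profile of the 4 tested members were Krtcap2 (26 and 422 counts in CON and TM of mouse 1, 12 and 746 in mouse 2), Ifih1, Gbp2 (4 and 40, 1 and 89), Vegfa (2 and 35, 0 and 47) and Ifit1bl2 (2 and 41, 0 and 48), at Euclidean distances of 0.212 to 0.701 in centred log2 CPM. Gbp2 encodes an interferon-induced GTPase. The likeness is a ranking over 4 libraries and carries no test. It rests on gene counts alone, and exonic depth is not given here for Krtcap2, Gbp2, Vegfa and Ifit1bl2. Whether their counts are RNA of these genes themselves was not tested.

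A site passed the limits the study set when 5 or more reads covered it, 3 or more of them were altered and the rate lay between 5% and 95%. By these limits the members had 5 such sites in TM of mouse 1 and 7 in TM of mouse 2, and 0 in both CON libraries. In CON only 10 and 12 member sites had 5 or more reads, against 318 and 410 in TM. Editing of OAS transcripts in CON was therefore not detectable at this depth, and the 0 in CON is no evidence of less editing. No member site met the limits set for a test on reads. These were 5 or more reads in both libraries of a mouse and 3 or more altered reads in either. The 8 sites lay in Oasl2 (4), Oas1g (3) and Oas3 (1), and 4 of them passed in both TM libraries. None lay in a coding exon.

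All 4 Oasl2 sites were intronic and in short interspersed nuclear elements (SINEs), the repeats in which inverted copies form dsRNA. In the B1_Mus2 element at position 114898214, 8 of 20 reads were altered in EC1 TM (40.0%, Wilson 95% interval 21.9% to 61.3%) and 5 of 20 in EC2 TM (25%, 11.2% to 46.9%), beside 1 of 1 in each CON library. In the B2_Mm1t element at 114909610 the rates were 15.6% (7 of 45 reads, 7.75% to 28.8%) in EC1 TM and 30.6% (19 of 62, 20.6% to 43.0%) in EC2 TM. The sites in MIRb at 114897866 and in B2_Mm2 at 114910416 passed in EC2 TM only, with 6 of 98 reads (6.12%) and 9 of 108 (8.33%), and had 2 of 61 and 2 of 72 altered reads in EC1 TM. The intervals of the 2 mice overlapped at each of these sites.

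Oas1g had a pair of neighbouring sites past its 3′ end, between Oas1g and Oas1h. At 120875760 the rates were 15% (3 of 20 reads) in EC1 TM and 32.0% (8 of 25) in EC2 TM, and at 120875764 15% (3 of 20) and 17.4% (4 of 23). The intronic site at 120884618, in the LINE MusHAL1, had 3 altered of 6 reads in EC1 TM and 2 of 7 in EC2 TM. The site in the 5′ UTR of Oas3 at 120777634 had 5 of 61 altered reads (8.20%, 3.55% to 17.8%) in EC2 TM and was not listed in the other libraries.

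A further 4 member sites had 3 or more altered reads and a rate above 95%, which the study set aside. The intronic sites of Oasl2 at 114908473 (41 of 41 and 53 of 53 reads in EC1 TM and EC2 TM, and 2 of 2 in EC1 CON) and of Oasl1 at 114926999 (40 of 40 and 70 of 70, and 1 of 1 in EC2 CON) carried the altered base in every read. The exonic site of Oas2 at 120745723 carried it in 78 of 78 and 143 of 144 reads, and the site in the 5′ UTR of Oasl2 at 114896963 in 2 of 2 and 10 of 10. The Oas2 site is the only coding position among these, at base 695 of the coding sequence, and is shown in its GENCODE transcript, chr5:120745703-120745743 on the minus strand, with the altered base in capitals.
Oas2: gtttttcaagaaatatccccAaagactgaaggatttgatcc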

How the data were processed

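Per the labels, total RNA of ribosome-depleted libraries (KAPA RNA HyperPrep with RiboErase) was sequenced. The authors trimmed reads with Trimmomatic 0.38, aligned them to mm10 (GRCm38) with STAR 2.6.1a and deposited HTSeq 0.11.2 raw counts per gene, without normalization and with default settings; the strand setting is not given in the sources used here. They called variants per library with BCFtools and deposited, for each candidate site, the counts of reference and altered reads with the altered fraction. Columns of that table were matched to libraries through the labelled site table of the study. Members and lists were chosen with earlier results of these data known. The rule for named genes takes the members, the pathway genes that were called, Adar, neighbouring genes and the 5 nearest profiles; other pathway and marker genes were named after their values were seen. The pathway list holds 23 genes, and some items first placed on it are not reported here.

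From the counts, edgeR 4.0.16 (R 4.3.3) was run with filterByExpr, TMM scaling, a quasi-likelihood test of TM against CON without a block, Benjamini-Hochberg adjustment over 7899 genes and a threshold of 0.05. The SE is the log2 fold change divided by the root of F. Rows that name no gene (92.8% to 93.9% no feature, 5.29% to 6.32% not uniquely aligned) were left out of library sizes. DESeq2 1.42.0, other filters and scalings, the mouse as a replicate block and leaving out each library were alternatives, and the count tests were tested on simulated data. The CON and TM libraries of a number come from 1 mouse, so the numbers pair the samples. Their deviations from the group means correlated at r = 0.155 over 7899 genes, a low value that does not itself show the pairing. P-values rest on the spread between 2 mice per group and on dispersions estimated with information from all genes tested. Oas1h and Oas1a, with 0 counts in both CON libraries, show no CON spread of their own. Gene counts per library were 1095488 to 1778732, and 3 counts equal 1.71 to 2.74 CPM. Depth at sites was scaled by the total over all rows of the count table. Columns of unassigned samples numbered 0.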

Additional observations from a re-analysis of the deposited data

How the results depend on the processing

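Members called higher numbered 4, and 5 with DESeq2 or without a filter on low counts, 3 with at least 20 counts in at least 2 libraries, 3 to 5 when each library was left out and 1 with the replicate block in DESeq2, which gave no adjusted p to 7 members. Under that block the log2 fold change of Oasl2 was 5.42 and was not called. Leaving out each library gave log2 fold changes of 7.26 to 7.56 for Oas1a, 8.86 to 9.17 for Oas1h, 3.59 to 7.89 for Oasl1 and 3.43 to 9.01 for Oasl2, and the first 2 depend on the prior count since CON is at 0. The edgeR fit with the replicate block called the same number of members. Of the pathway list 7 genes were called higher, 9 with the replicate block in edgeR, 4 with DESeq2, 3 with the replicate block in DESeq2 and 5 to 7 when each library was left out. The lower bound of Oas1h was 20.5 without TMM.

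The log2 depth ratio over the bases that CON and TM of a mouse share was 4.35 and 3.79 for Oasl2 in mouse 1 and mouse 2 and 5.60 for Oasl1 in mouse 2, resting on CON depths of 1 to 4 reads at all but 1 site. Over all listed sites of each library it was 7.91 and 7.78 for Oasl2 in mouse 1 and mouse 2 and 9.58 for Oasl1 in mouse 2, and that over exon and UTR sites was 5.37 for Oasl2 in mouse 1. Passing sites numbered 2 in EC1 TM with at least 5 altered reads and 4 in EC2 TM with rates of 0.10 to 0.90. Sites with a higher rate in TM numbered 4 and 6 in the 2 mice, 3 in mouse 2 with a difference of at least 0.10 and 0 in both where a site had to be listed in both libraries. These sites had no listed CON read and were given a CON rate of 0, so their direction is fixed by the missing CON reads and is no evidence of a higher rate. The cause of these changes was not tested, apart from the fewer sites each setting keeps. The limma test on exonic depth was not run, since no member has an exonic site listed in all 4 libraries at once, and Fisher's test on reads had no member site with 5 reads in both libraries and 3 altered reads in either. Low CON counts and the 1 to 4 exonic sites listed in CON limit every fold.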
